A study of Mus musculus with 2 samples.

Results

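Neuregulins are growth factors that signal through the ErbB family of receptor tyrosine kinases, and their RNAs were followed here in single nuclei of the mouse anterior hypothalamus. The 7 genes were 4 ligands (Nrg1, Nrg2, Nrg3 and Nrg4) and 3 receptors (Erbb3, Erbb4 and Egfr), picked by gene symbol from the 32289 features of the deposited matrices. Each symbol matched 1 feature. Nuclei came from 1 pool of 5 male mice aged 22 months and 1 pool of 5 male mice aged 3 months, dissected to hold the anterior hypothalamus and the preoptic area. The labels call the young mice wild-type, name no genotype for the aged mice and give no strain or treatment for either pool. With 1 library per age, the age, the pool and the library cannot be told apart, no test between the ages was possible, and every 95% interval covers counting error only.

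Neuregulins are made as transmembrane or membrane-tethered precursors that proteases such as Bace1 and the Adam proteases cut to release the signalling domain. ErbB4 binds neuregulins and is an active kinase. ErbB3 binds them but has little kinase activity of its own and works in pairs with other ErbB receptors, chiefly ErbB2, and Egfr binds EGF-type ligands. In the forebrain, Nrg1 and Nrg3 are known as neuronal ligands, Erbb4 as a receptor of many inhibitory neurons, and Erbb3 as a receptor of the oligodendrocyte lineage.

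Barcodes with 500 or more genes and at most 5% mitochondrial counts of unique molecular identifiers (UMIs) numbered 8597 in the aged library and 10437 in the young one, with medians of 5699 and 5567 UMIs. Barcodes called as doublets (398 aged and 498 young) were left out, and 25 barcode sequences occurred among the kept barcodes of both libraries. Clustering without the 7 genes gave 4978 aged and 6416 young neurons, 1881 and 2134 oligodendrocytes, 183 and 253 oligodendrocyte precursors, 153 and 387 astrocytes and 407 and 475 microglia. A cluster of low depth (median 687 UMIs), led by Oxt and ribosomal protein genes, held 517 aged and 90 young nuclei, stayed unnamed and entered none of the cell group values below. UMI counts given on the rule's barcodes include it and the called doublets. Neurons formed 28 sub-clusters, called here by their 3 leading genes. One of them (Slc17a7, Pdzrn3, Sim1) was nearly confined to the young library, with 71 nuclei there against 1, and enters no sub-cluster comparison. Orders of levels cover the 32 cell groups with 20 or more nuclei in each library, which leaves out fibroblasts, border macrophages and the Slc17a7, Pdzrn3, Sim1 and Avp, Oxt, Sim1 sub-clusters (the latter with 11 aged and 16 young nuclei).

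Levels are given as CPM, a gene's UMI count scaled to a common total per cell group and library. On the rule's barcodes Nrg3 was counted 149903 times in the aged and 171141 times in the young library, Nrg1 113506 and 134378 times, and Erbb4 80223 and 92624 times. The other members were sparser, with 9239 and 12265 UMIs of Nrg2, 1109 and 971 of Nrg4, 452 and 554 of Erbb3, and 454 and 995 of Egfr. The 3 most counted genes are also the longest, with 1104 kb for Nrg3, 1076 kb for Erbb4 and 1069 kb for Nrg1 in the GENCODE M21 mouse annotation, against 180 kb for Nrg2, 166 kb for Egfr, 107 kb for Nrg4 and 22.1 kb for Erbb3. They lie on chromosomes 14, 1 and 8, and the shorter 4 on chromosomes 18 (Nrg2), 11 (Egfr), 9 (Nrg4) and 10 (Erbb3). Per kb of gene, Nrg3 still led in neurons at 2.72 CPM per kb in the aged library and 2.57 in the young one. Nrg1 followed at 2.11 and 2.09 CPM per kb, then Erbb4 at 1.30 and 1.22, Nrg2 at 0.995 and 1.10, and Nrg4 at 0.203 and 0.151. Egfr (0.0326 and 0.0441 CPM per kb) and Erbb3 (0.0176 and 0.0260) were lowest, so the order of the 7 genes per kb in neurons was the same in both libraries.

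**Figure D1:**
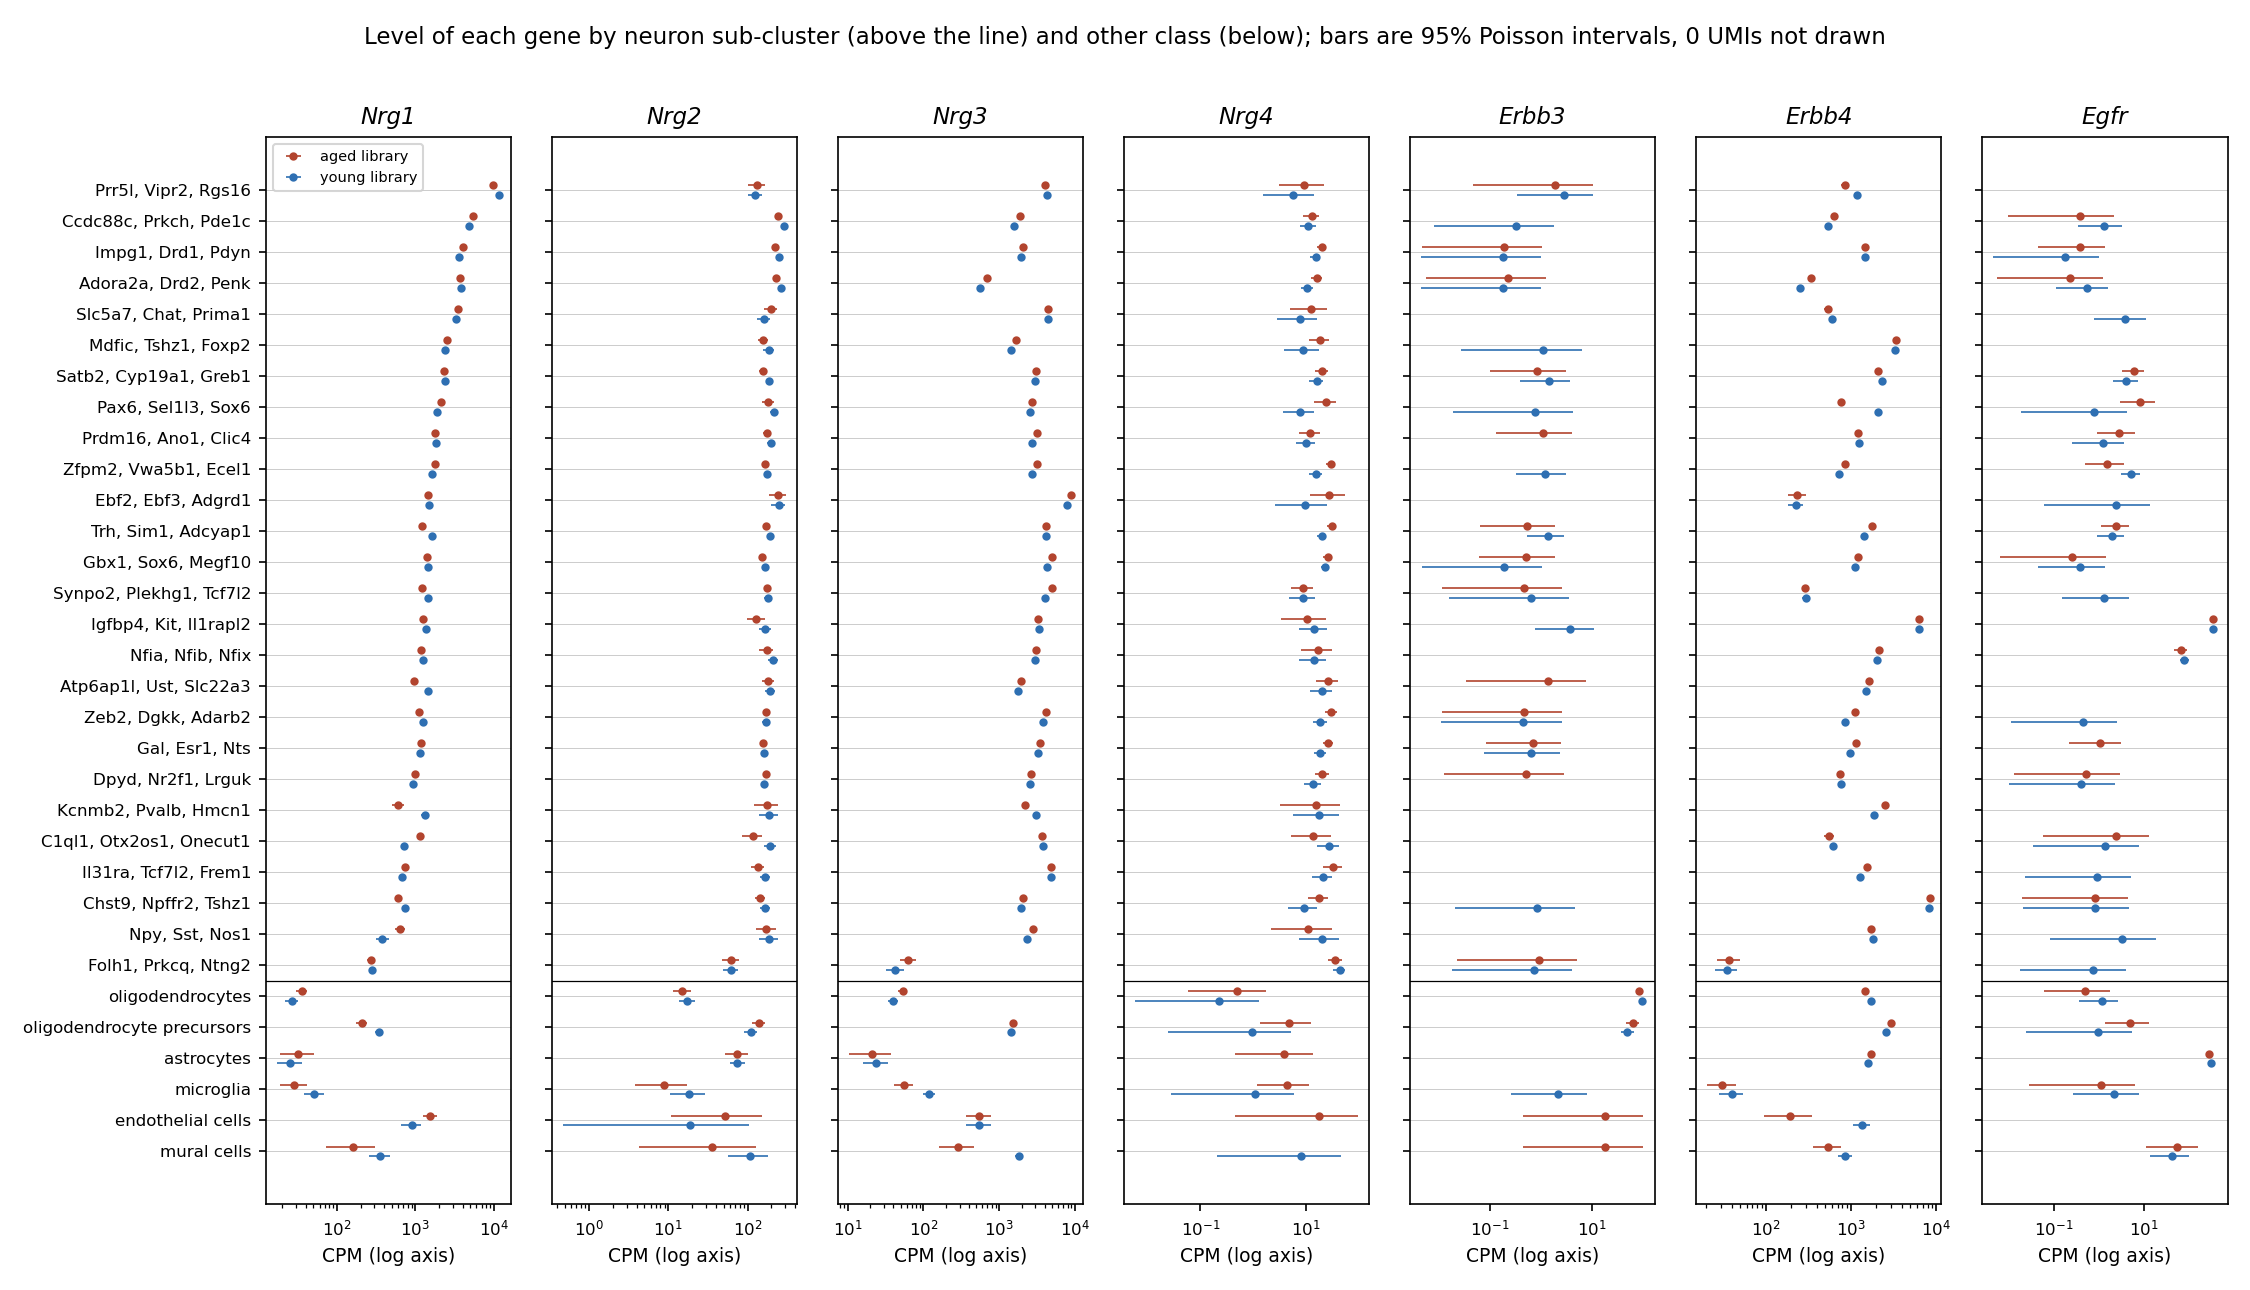
CPM of each gene (log axes, a different range per panel) in 26 neuron sub-clusters and 6 other classes, aged library in red and young in blue, with 95% Poisson intervals. Nrg1 spans from 25.3 CPM in astrocytes to 11734 CPM in the sub-cluster led by Prr5l, Vipr2 and Rgs16, while Nrg2 varies little over most neurons, and Erbb3 is highest in oligodendrocytes and their precursors.

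Among the ligands, Nrg1, whose product acts on ErbB3 and ErbB4, was highest in a GABAergic sub-cluster of 81 aged and 112 young nuclei led by Prr5l, Vipr2 and Rgs16. Its leading genes also included Rorb and Lhx1, which with Rgs16 are markers of the suprachiasmatic nucleus, the brain's circadian clock, so this sub-cluster is suprachiasmatic-like. Nrg1 stood there at 9897 CPM in the aged and 11734 CPM in the young library. This was 4.56 times (95% interval 4.44 to 4.69) the level of all other neurons in the aged library and 5.56 times (5.44 to 5.69) in the young. The sub-cluster held 1.63% of aged and 1.75% of young neurons but 5.06% and 6.68% of the neuronal Nrg1 UMIs.

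Next in the order of Nrg1 levels came the sub-cluster led by Ccdc88c, Prkch and Pde1c at 5495 aged and 4826 young CPM. The sub-clusters led by Impg1, Drd1 and Pdyn (4076 and 3564 CPM) and by Adora2a, Drd2 and Penk (3687 and 3836 CPM), which carry genes of the direct and indirect output pathways of the striatum, changed places between the libraries. Cholinergic neurons, led by Slc5a7, Chat and Prima1, followed at 3471 and 3267 CPM. Of the 26 sub-clusters, Nrg1 was lowest in the one led by Folh1, Prkcq and Ntng2, at 269 and 280 CPM. Across the other sub-clusters neighbours in the order mostly could not be separated, since their intervals overlapped in 1 or both libraries.

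Outside neurons, Nrg1 was clearly above free RNA in oligodendrocyte precursors, at 207 aged and 341 young CPM, where empty droplets would contribute 13.04 and 10.3 CPM. A list of 8 neuron markers summed to 3162 aged and 3258 young CPM in precursors, against 18712 and 20788 CPM in neurons. The part of neuronal RNA in the precursor value of Nrg1 was not tested. In oligodendrocytes it was 35.7 and 26.4 CPM, near the 26.9 and 20.8 CPM that empty droplets would give. In astrocytes it was 32.2 and 25.3 CPM, with 17 and 30 UMIs in all, against 16.95 and 13.98 CPM from empty droplets. In microglia it was 28.7 and 51.6 CPM against 26.3 and 21.8 CPM, and 1 young nucleus held 15 of the 48 UMIs. Endothelial nuclei reached 1547 and 896 CPM, but 1 of 21 aged nuclei carried 86 of the 88 UMIs and 1 of 24 young nuclei 32 of 48. The aged value therefore rests on 1 barcode. In the young library a second nucleus held 12 UMIs, and 6 nuclei had any.

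Nrg2, a ligand related to Nrg1, had the flattest profile. In 25 of the 26 neuron sub-clusters it lay between 116 and 285 CPM, with the highest level in the sub-cluster led by Ccdc88c, Prkch and Pde1c (244 aged and 285 young CPM). In both libraries its intervals overlapped those of the sub-clusters led by Ebf2, Ebf3 and Adgrd1 (241 and 245 CPM) and by Adora2a, Drd2 and Penk (229 and 267 CPM). Only the sub-cluster led by Folh1, Prkcq and Ntng2 stood lower, at 61.6 and 61.4 CPM. Oligodendrocyte precursors held 138 and 110 CPM and astrocytes 73.8 and 74.3 CPM, against 2.61 and 2.09, and 3.39 and 2.84, CPM from empty droplets. In oligodendrocytes it was 14.9 and 17.5 CPM and in microglia 8.82 and 18.3 CPM.

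Nrg3, a ligand of ErbB4, was the most abundant member in neurons and highest in glutamatergic neurons led by Ebf2, Ebf3 and Adgrd1, at 8825 aged and 7925 young CPM. That was 2.98 (2.86 to 3.10) and 2.83 (2.74 to 2.93) times the level of other neurons. Below it came 4 sub-clusters whose intervals overlapped those of their neighbours in 1 or both libraries, led by Il31ra, Tcf7l2 and Frem1 (4764 and 4801 CPM), by Gbx1, Sox6 and Megf10 (4988 and 4335), by Synpo2, Plekhg1 and Tcf7l2 (4958 and 4022) and by Slc5a7, Chat and Prima1 (4475 and 4390). At the low end stood the sub-clusters led by Adora2a, Drd2 and Penk (699 and 551 CPM) and by Folh1, Prkcq and Ntng2 (63.4 and 42.6 CPM). In the latter, Nrg3 was 0.0207 times (0.0161 to 0.0261) the level of other neurons in the aged library and 0.0147 times (0.0112 to 0.0189) in the young library.

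Oligodendrocyte precursors also carried Nrg3, at 1534 aged and 1412 young CPM. Neuron markers summed to 3162 and 3258 CPM in precursors, and the part of neuronal RNA in this Nrg3 value was not tested. Oligodendrocytes held 53.1 and 39.8 CPM, of which empty droplets would give 46.4 and 30.5 CPM, and astrocytes (20.8 and 23.6 CPM) lay at or close to the 29.2 and 20.5 CPM of empty droplets. Precursors were 28.9 (25 to 33.5) and 35.5 (30.3 to 41.7) times as high as oligodendrocytes. Mural cells showed 285 and 1830 CPM. Of the 222 young UMIs, 118 lay in 1 of 40 nuclei and 77 in a second, and 5 nuclei had any. In the aged library 1 of 28 nuclei held 12 of the 16 UMIs.

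Nrg4, a small ligand known mainly from fat tissue, was scarce and neuronal. Among the 26 sub-clusters with 20 or more nuclei in each library, its highest level was in the one led by Folh1, Prkcq and Ntng2, which was the lowest of them for Nrg1, Nrg2 and Nrg3, at 36.3 CPM (40 UMIs) in the aged and 43.4 CPM (60 UMIs) in the young library. Relative to other neurons this was 1.70 times (1.21 to 2.33) in the aged and 2.82 times (2.14 to 3.67) in the young library. The Avp, Oxt, Sim1 sub-cluster, below that limit, had 48.4 CPM (6 UMIs) and 64.0 CPM (11 UMIs), with intervals that overlapped those of the Folh1 sub-cluster. The intervals of successive sub-clusters below also overlapped throughout. Glia had almost none, with 2 aged and 1 young UMI in oligodendrocytes, 4 and 1 in precursors, 2 and 0 in astrocytes and 4 and 1 in microglia.

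Among the receptors, Erbb4 was carried by neurons and by every glial class except microglia. It was highest in a GABAergic sub-cluster led by Chst9, Npffr2 and Tshz1, at 8441 aged and 8247 young CPM, which is 7.01 (6.86 to 7.16) and 7.09 (6.94 to 7.24) times other neurons. These neurons made up 4.22% and 3.40% of the class and 16.3% and 13.6% of its Erbb4 UMIs. The sub-cluster led by Igfbp4, Kit and Il1rapl2 followed at 6416 and 6348 CPM, then the one led by Mdfic, Tshz1 and Foxp2 at 3387 and 3326 CPM. These first 3 places were the same in both libraries, and their intervals did not overlap.

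Oligodendrocyte precursors took the fourth place for Erbb4, at 2971 aged and 2616 young CPM. Astrocytes had 1753 and 1579 CPM and oligodendrocytes 1487 and 1729 CPM, both above the class level of neurons (1400 and 1317 CPM). Free RNA could supply little of this, since empty droplets would give 25.8 CPM or less in these classes. Microglia, at 30.9 and 39.8 CPM against 25.2 and 19.3 CPM from empty droplets, served as the class that should lack the receptor. The sub-cluster led by Folh1, Prkcq and Ntng2 was as low, at 37.2 and 34.7 CPM.

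Within oligodendrocytes, Erbb4 separated both clusters of the class. The cluster led by Il33, Opalin and St18 (1576 aged and 1632 young nuclei) held 1721 and 2018 CPM, and the cluster led by Enpp6, Anln and Hapln2 (305 and 502 nuclei) held 583 and 962 CPM. The first was 2.95 times (2.69 to 3.24) as high in the aged and 2.10 times (1.97 to 2.24) in the young library. Erbb3 did not follow that split, with 79.5 against 94.0 CPM in the aged and 98.6 against 79.2 CPM in the young library, and intervals of its ratio that spanned 1 in both.

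The Drd1 and Drd2 sub-clusters gave a second contrast at near-equal depth (medians of 8931 and 8590 UMIs over both libraries). Erbb4 was 1479 CPM in the Drd1 sub-cluster of both libraries and 337 aged and 252 young CPM in the Drd2 sub-cluster, a ratio of 4.39 (4.15 to 4.64) and 5.87 (5.54 to 6.21). Nrg3 differed in the same direction, at 2.98 (2.87 to 3.11) and 3.54 (3.41 to 3.69) times higher levels in the Drd1 sub-cluster. Nrg1 had ratios on opposite sides of 1 in the aged (1.11) and young (0.929) library, and the Nrg2 ratios of 0.968 (0.890 to 1.05) and 0.943 (0.876 to 1.02) spanned 1.

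Erbb3, the receptor with weak kinase activity, was restricted to the oligodendrocyte lineage at this depth. Oligodendrocytes had 82.5 CPM (337 UMIs) in the aged and 93.3 CPM (410 UMIs) in the young library, and precursors had 62.1 and 48.4 CPM with 51 UMIs in each. Precursors were at 0.753 times (0.550 to 1.01) the oligodendrocyte level in the aged and 0.518 times (0.380 to 0.695) in the young library. Astrocytes had 0 UMIs in both libraries, which allows up to 5.68 CPM aged and 2.53 CPM young (3 UMIs of the class total). Neurons had 18 and 32 UMIs, or 0.390 and 0.575 CPM.

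Egfr, the EGF receptor, was concentrated in a few cell groups. The sub-cluster led by Igfbp4, Kit and Il1rapl2 had 336 aged and 326 young CPM, 175 times (134 to 229) and 129 times (105 to 160) the level of other neurons. Its 62 aged and 91 young nuclei held 64.8% and 66.1% of all neuronal Egfr UMIs. Another 15.2% and 17.7% came from the sub-cluster led by Nfia, Nfib and Nfix, at 64.6 and 77.4 CPM. Astrocytes, at 276 and 300 CPM, overlapped in their interval with the leading sub-cluster. Fibroblasts of the young library had 354 CPM (142 UMIs in 96 nuclei), while the 16 aged nuclei gave 4 UMIs. This class pools clusters, and the one led by Bnc2, Adamtsl3 and Slc47a1 held 0 aged and 33 young nuclei. The sub-cluster led by Igfbp4, Kit and Il1rapl2 was thus second for Erbb4 and first for Egfr among the neuron sub-clusters.

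The coreceptor Erbb2 was almost undetected, with 19 aged and 18 young UMIs over the rule's barcodes. Oligodendrocytes had 0 and 1 UMI of it and precursors 0 in both libraries, so that the classes with most Erbb3 had no more than 1 Erbb2 UMI. For precursors 0 UMIs allow up to 3.65 CPM in the aged and 2.85 CPM in the young library. Astrocytes had 4 and 3 Erbb2 UMIs.

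After thinning each nucleus to 1000 UMIs, 93.4% of aged (88.8 to 96.6) and 87.0% of young (82.2 to 90.8) precursors had an Erbb4 UMI. The share was 68.4% and 67.8% in astrocytes, 65.6% and 72.5% in oligodendrocytes and 45.0% and 42.5% in neurons, against a background of 3.72% and 1.52% in microglia. Without thinning the median depth was 8336.5 and 7756 UMIs in neurons and 2130 and 1804 in microglia, and the Erbb4 shares were 64.9% and 62.5% in neurons and 6.88% and 5.26% in microglia. Nrg3 was seen in 77.9% and 74.9% of thinned neurons and in 71.0% and 70.8% of precursors, and Nrg1 in 59.3% and 59.5% of neurons. Egfr was seen in 26.3% and 22.9% of astrocytes. Nuclei too shallow for thinning numbered 10 and 9 among neurons, 23 and 54 among oligodendrocytes, 1 and 2 among astrocytes, 4 and 14 among microglia and 0 among precursors.

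**Figure D2:**
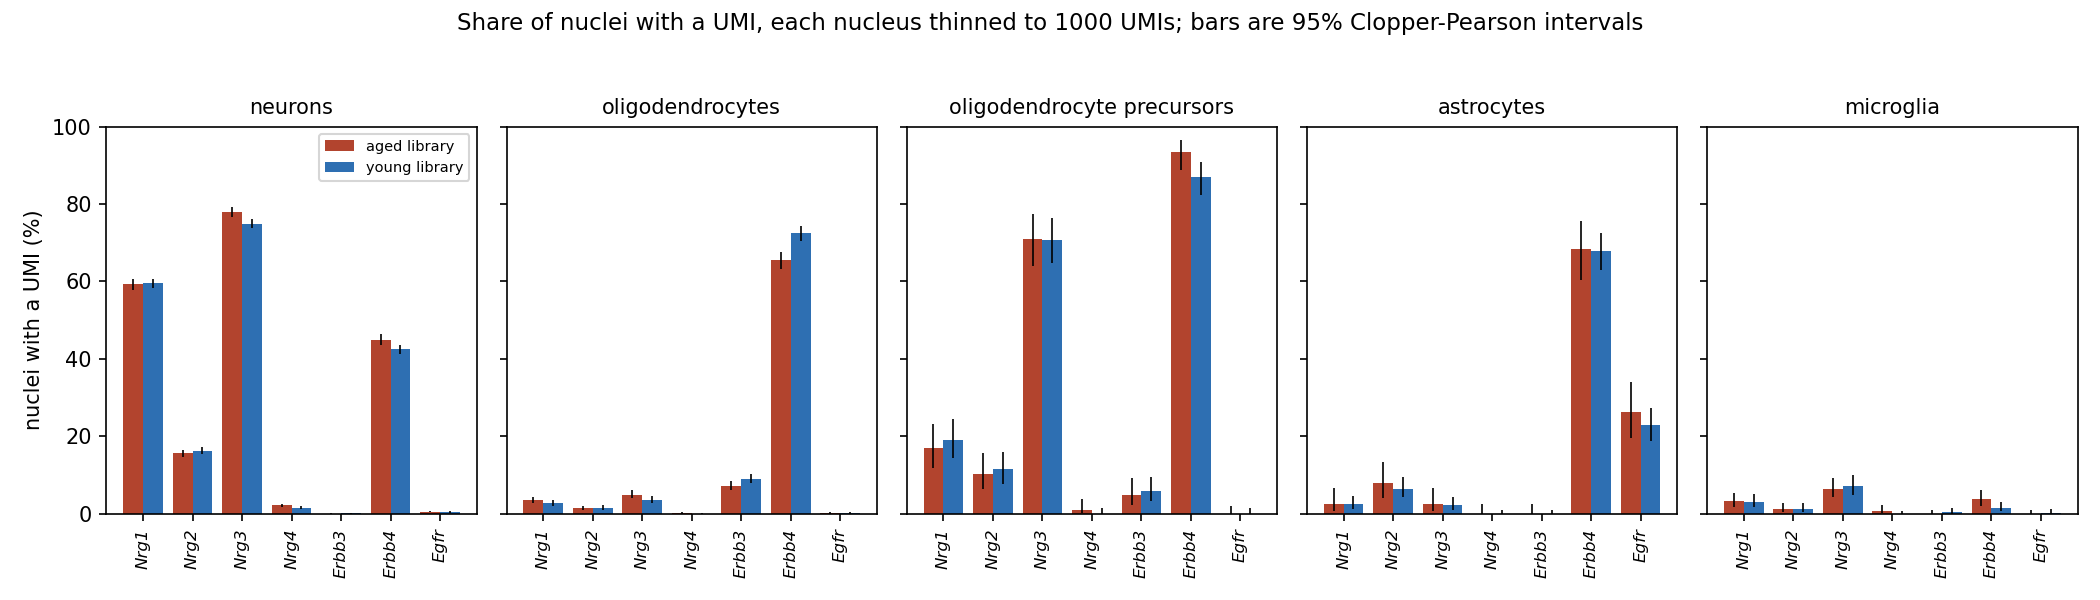
Share of nuclei (%) with at least 1 UMI of each gene after thinning to 1000 UMIs, by class, aged library in red and young in blue, with 95% Clopper-Pearson intervals. Erbb4 is the member seen most often in oligodendrocytes, precursors and astrocytes, and Nrg3 in neurons and microglia, where its share is 77.9% and 6.45% in the aged library. Free RNA is not subtracted from these shares, and its part in the microglial share was not tested.

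Across the 32 cell groups the profiles of Nrg1, Nrg2 and Nrg3 were alike, with Pearson's r of log2(CPM + 5) of 0.753 (Nrg1 and Nrg2), 0.755 (Nrg1 and Nrg3) and 0.765 (Nrg2 and Nrg3). Ligand and receptor profiles were less so, with r to Erbb4 of 0.165 for Nrg1, 0.362 for Nrg2, 0.354 for Nrg3 and -0.0218 for Nrg4. Every ligand had a negative r with Erbb3, from -0.375 (Nrg3) to -0.617 (Nrg4). The same held with Egfr, from -0.096 (Nrg2) to -0.313 (Nrg1 and Nrg4). The groups share their libraries and the split between neurons and glia, so these r values are descriptions. The genes most like Nrg1 were Slc2a13 (0.899), Ptprn, Jade3, Sptbn4 and Gpr158, those most like Nrg2 were Fgf14 (0.938), Gpr158, Mapk10, Csmd1 and Scn8a, and those most like Nrg4 included Tmem179 (0.880), Nipsnap1, Cacna1i and Gpr61. Erbb3 was most like Plxnb3 (0.987), Sox10, Gjc3, Bcas1os2 and Bfsp2. No gene reached 0.8 with Erbb4 or Egfr, whose closest profiles were Lrrc4c (0.696) and Fjx1 (0.699).

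Nrg3 was most like Nrg3os (0.993), a gene annotated as antisense within it, followed by Hecw1, Lingo2, Stau2 and Tacc2. No source used here says whether counting used strand, so UMIs of Nrg3, Nrg3os and Gm20642, another antisense gene inside Nrg3, cannot be told apart with certainty. Opposite-strand genes also overlap Nrg2 (4930471G03Rik), Egfr (Egfros) and Nrg4 (Fbxo22).

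Between the ages, most members differed little in neurons. Nrg1 was 2257 CPM in the aged and 2231 CPM in the young library, a ratio of 1.01 (1.00 to 1.02). Nrg3 (2999 and 2835 CPM) and Erbb4 (1400 and 1317 CPM) both had a ratio of 1.06 (1.05 to 1.07), and Nrg2 (179 and 197 CPM) one of 0.907 (0.881 to 0.933). The Chst9, Npffr2, Tshz1 sub-cluster, highest for Erbb4 at 8441 aged and 8247 young CPM, made up 4.22% of aged and 3.40% of young neurons. With sub-clusters weighted alike in both libraries, 4 of 6 neuron ratios moved outside their interval and 0 reversed. The weighted ratios of Nrg1, Nrg2, Nrg3 and Erbb4 are not given here. A gene is called past the fold here when its ratio was 0.8 or less, or the inverse of 0.8 or more, with at least 100 UMIs over both libraries. In neurons 21.3% of 16303 tested genes were past it (9.15% higher and 12.1% lower in the aged library), and 2 of 6 tested members were, Nrg4 in the first direction and Egfr in the second. Genes of 500 kb or more, a split made after the values were seen, were past the fold less often in neurons (6.96% of 230) than shorter genes (21.5% of 16061), and the 3 longest members were among those within it.

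Nrg4 was higher in aged neurons, at 21.7 CPM (1001 UMIs) against 16.1 CPM (893 UMIs), a ratio of 1.35 (1.23 to 1.48). With sub-clusters weighted alike in both libraries the ratio was 1.33. Of the 8 sub-clusters with 50 or more nuclei per library and 100 or more Nrg4 UMIs, 6 were past the fold, all higher in the aged library, where 24.9% of all pairs of gene and sub-cluster were past it (12.6% higher and 12.3% lower). The ratio reached 1.90 (1.34 to 2.72) in the sub-cluster led by Zfpm2, Vwa5b1 and Ecel1, where 29.4 aged stood against 15.4 young CPM. It was 1.59 in the one led by Zeb2, Dgkk and Adarb2, 1.53 in the one led by Adora2a, Drd2 and Penk and 1.52 in the one led by Trh, Sim1 and Adcyap1. The lowest of the 8 was 0.836, in the sub-cluster led by Folh1, Prkcq and Ntng2, which had the highest Nrg4 level of the 8.

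Egfr was lower in aged neurons, at 5.41 CPM (250 UMIs) against 7.32 CPM (407 UMIs), a ratio of 0.739 (0.629 to 0.868). Weighting the sub-clusters alike in both libraries brought it to 0.962. Within the sub-cluster that held most of its UMIs, led by Igfbp4, Kit and Il1rapl2, the ratio was 1.03. In the one led by Nfia, Nfib and Nfix it was 0.834.

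The long genes were past the fold in few single sub-clusters, each at a share below the 24.9% of all pairs of gene and sub-cluster. For Erbb4 these were 4 of 21 tested sub-clusters. It was higher in the aged library in those led by Adora2a, Drd2 and Penk (337 and 252 CPM, ratio 1.34) and by Zeb2, Dgkk and Adarb2 (1130 and 856 CPM, ratio 1.32). It was lower in the suprachiasmatic-like sub-cluster (852 and 1186 CPM, ratio 0.718, interval 0.639 to 0.806). It was also lower in the one led by Pax6, Sel1l3 and Sox6 (777 and 2110 CPM, ratio 0.368, interval 0.336 to 0.403). In the last, 40 of 75 aged and 90 of 131 young nuclei had an Erbb4 UMI, and 1 young nucleus held 413 of 2768 UMIs.

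Nrg1 was past the fold in 2 of 22 sub-clusters, both lower in the aged library. They were led by Trh, Sim1 and Adcyap1 (1200 and 1626 CPM, ratio 0.738, interval 0.712 to 0.765) and by Atp6ap1l, Ust and Slc22a3 (954 and 1443 CPM, ratio 0.661, interval 0.603 to 0.724). Nrg3 was past it in 2 of 22, both higher, led by Adora2a, Drd2 and Penk (699 and 551 CPM, ratio 1.27) and by Folh1, Prkcq and Ntng2 (63.4 and 42.6 CPM, ratio 1.49), and its ratio was above 1 in 19 of 22. The value in the Folh1 sub-cluster rests on 70 aged and 59 young UMIs, and the part of free RNA in it was not tested. Nrg2 was past it in 1 of 22, the one led by Igfbp4, Kit and Il1rapl2, at a ratio of 0.775 (0.565 to 1.05). The sub-cluster led by Adora2a, Drd2 and Penk was thus past the fold, and higher in the aged library, for Nrg3, Nrg4 and Erbb4. It is singled out after its values were seen. Over all pairs of gene and sub-cluster 12.6% were past the fold in that direction, and the share of all genes in this sub-cluster alone is not given here.

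**Figure D3:**
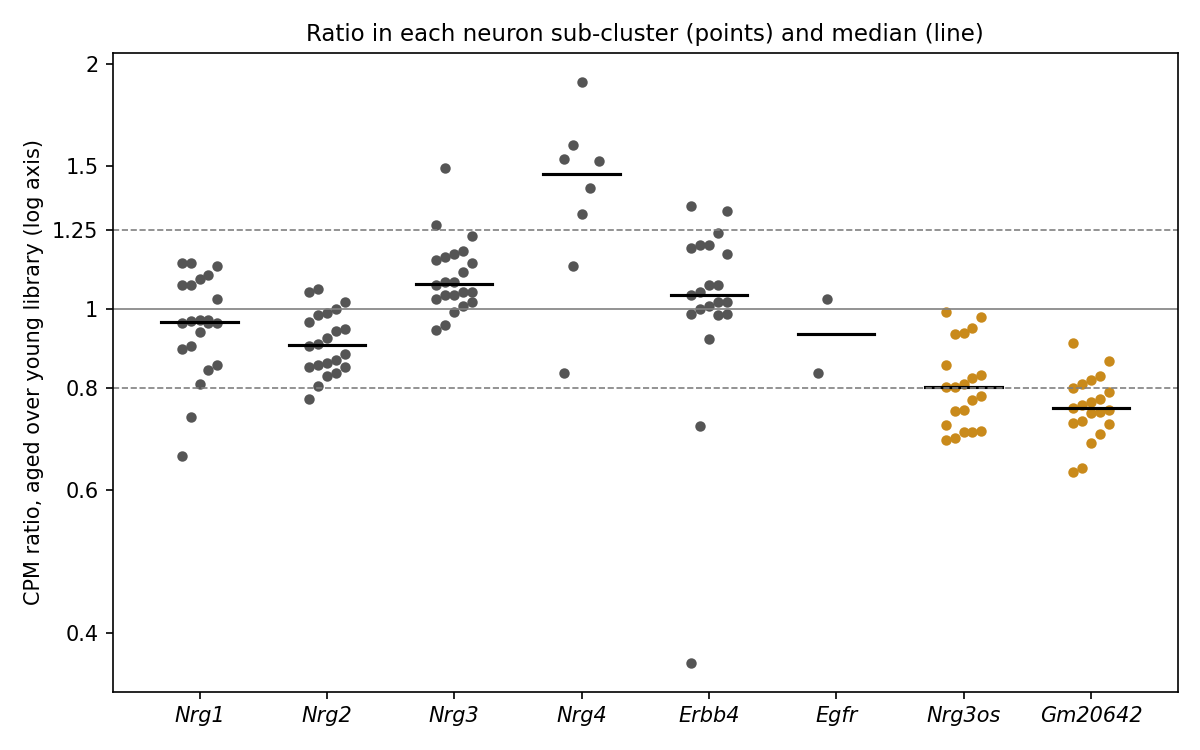
Aged over young CPM ratio (log axis) in each neuron sub-cluster with 50 or more nuclei per library and 100 or more UMIs of the gene (points), with the median over sub-clusters (line), and dashed lines at 0.8 and its inverse. The median is 1.46 for Nrg4 and 1.08 for Nrg3, while the antisense genes Nrg3os and Gm20642 (orange) lie below 1 in every sub-cluster tested, with medians of 0.802 and 0.756.

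The antisense genes within Nrg3 ran against it. In neurons Nrg3os was 307 aged and 395 young CPM, a ratio of 0.776 (0.760 to 0.793), and Gm20642 was 232 and 315 CPM, a ratio of 0.735 (0.718 to 0.753), while Nrg3 itself was at 1.06. Nrg3os was past the fold in 10 of 21 and Gm20642 in 16 of 21 tested sub-clusters, all lower in the aged library. Antisense genes as an annotated type were lower in the aged library in neurons. Of 1297 tested, 54.7% were past the fold in that direction against 12.1% of all genes, with a median ratio of 0.762 against 1.01. The bearing of this on the Nrg3 value was not tested.

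In oligodendrocytes 26.5% of tested genes were past the fold (19.7% higher in the aged library), and 2 of 5 tested members were, both higher. These were Nrg1 (35.7 and 26.4 CPM, ratio 1.35, interval 1.05 to 1.74) and Nrg3 (53.1 and 39.8 CPM, ratio 1.33, interval 1.09 to 1.64), the ligands whose levels lay near those of free RNA. After subtraction of the empty droplet profile the Nrg1 ratio was 1.62 and the Nrg3 ratio 0.747, on the other side of 1, and both ligands then had fewer than 100 UMIs. Erbb4, their main receptor by count, had 1487 aged and 1729 young CPM, a ratio of 0.860 (0.831 to 0.889), within the fold. It was lower in the aged library in both clusters, at 0.853 (0.823 to 0.884) in the one led by Il33, Opalin and St18 and past the fold at 0.606 (0.544 to 0.675) in the one led by Enpp6, Anln and Hapln2. In that second cluster 26.2% of tested genes were past the fold (9.56% lower) and Erbb4 was 1 of 2 tested members. In the first, 27.7% were past it (20.7% higher), and the 2 of 5 members past it were again Nrg1 and Nrg3. Erbb3 had a ratio of 0.884 (0.763 to 1.02).

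In oligodendrocyte precursors 30.9% of tested genes were past the fold (16.8% higher and 14.1% lower), and 3 of 5 tested members were. Nrg1 was lower in the aged library, with 170 UMIs in 183 nuclei (207 CPM) against 360 UMIs in 253 nuclei (341 CPM), a ratio of 0.606 (0.502 to 0.730). The share of precursors with an Nrg1 UMI was 45.4% and 47.0%, while 6 aged and 24 young nuclei had 5 or more. With called doublets kept the ratio was 0.848. Nrg2 (138 and 110 CPM, interval of the ratio 0.957 to 1.63) and Erbb3 (62.1 and 48.4 CPM, ratio 1.28, interval 0.854 to 1.93) were just past the fold with intervals that spanned 1. Erbb4 had a ratio of 1.14 (1.07 to 1.20) and Nrg3 one of 1.09 (1.01 to 1.17), which was 0.931 with doublets kept and 0.977 at Leiden resolution 2. Oligodendrocyte markers also differed among precursors, with a summed level of 526 aged and 1150 young CPM over 8 markers, all of which had UMIs in both libraries, and their part in these ratios was not tested. The leading genes of the precursor cluster included Gpr17, which is on the marker list of committed precursors. The part of committed cells in these ratios was not tested.

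In astrocytes 28.5% of tested genes and 0 of 3 tested members were past the fold. Erbb4 had a ratio of 1.11 (1.02 to 1.20), Nrg2 one of 0.994 (0.663 to 1.46) and Egfr one of 0.922 (0.755 to 1.12). In microglia 28.8% of tested genes were past it (12% lower), and so was the only tested member, Nrg3, lower at 55.1 aged and 119 young CPM and a ratio of 0.462 (0.324 to 0.651). One young nucleus held 42 of the 111 UMIs, 48 aged and 46 young nuclei had a UMI, and without the top nucleus of each library the ratio was 0.696. With doublets kept it was 1.07, on the other side of 1, and after subtraction of empty droplet RNA it was 0.117, with fewer than 100 UMIs left in both cases. Neuron markers summed to 945 aged and 1218 young CPM in microglia, with all 8 detected in both libraries, and their part in this ratio was not tested.

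Vascular and meningeal classes held 96 nuclei or fewer per library and were not read for differences. Their ratios with 100 or more UMIs ran from 0.156 (Nrg3 in mural cells) and 0.179 (Egfr in fibroblasts) to 6.27 (Nrg1 in fibroblasts, with all 72 aged UMIs in 1 nucleus).

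**Figure D4:**
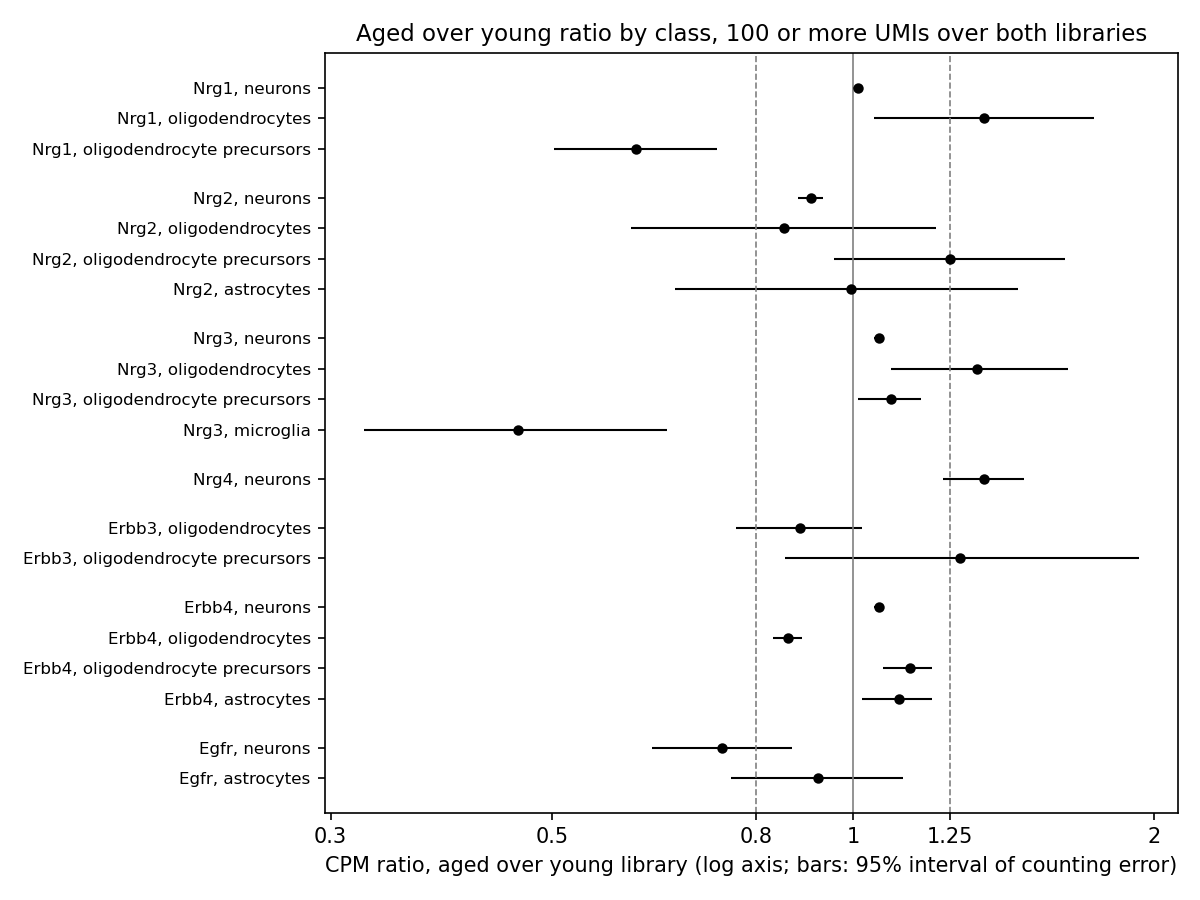
Aged over young CPM ratio (log axis) of each gene with 100 or more UMIs over both libraries in neurons, oligodendrocytes, precursors, astrocytes and microglia, with 95% intervals of counting error and dashed lines at 0.8 and its inverse. The long genes in neurons lie within the dashed lines with narrow intervals, and of the points drawn those farthest from 1 are Nrg3 in microglia (0.462) and Nrg1 in precursors (0.606).

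A list of 87 other genes of the pathway was read beside the members, covering the coreceptor, other EGF-family ligands, proteases, adaptors and kinases, scaffolds and negative regulators. In neurons 4 of 82 tested were higher in the aged library past the fold and 2 lower, or 7.32% against 21.3% of all tested genes, with a median ratio of 0.989 against 1.01. The higher ones were the kinase Mapk3 (1.37), the gamma-secretase subunit Aph1a (1.29), the PI3-kinase subunit Pik3r2 (1.29) and Stat5a (1.55). The lower ones were Dlg4, the postsynaptic scaffold PSD-95 to which ErbB4 binds (82.7 and 107 CPM, ratio 0.771, interval 0.740 to 0.803), and Spry2, an inhibitor of receptor tyrosine kinase signalling (0.791).

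In oligodendrocytes 13 of 71 list genes were higher and 1 lower, 19.7% in all, with a median ratio of 1.08 beside 1.07 over all tested genes. The first 5 by interval were Sntb2 (1.78), Mapk3 (1.45), Gab2 (1.27), Pik3r3 (1.36) and Map2k1 (1.31). This share stood below the 26.5% of all tested genes. In precursors 5 of 45 were higher and 6 lower, 24.4% against 30.9% of all tested genes. Fyn, a Src-family kinase that promotes oligodendrocyte maturation, was at 309 aged and 684 young CPM (ratio 0.452, interval 0.391 to 0.523), and Pik3r3 was at 67.0 and 248 CPM (ratio 0.271, interval 0.198 to 0.363). Stat5b (0.778), Sos1 (0.779) and Cblb (0.739) were also lower, and Pik3ca was the other lower one, all 4 with intervals that spanned 1. The higher ones included Psenen (1.66), Map2k1 (1.49), Pik3cb (1.37) and Src (1.31). These precursor ratios stand beside the difference in oligodendrocyte markers given above.

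In astrocytes 8 of 37 list genes were higher and 2 lower, 27.0% against 28.5% of all tested genes, and the higher ones included Prkca (1.32), Dlg2 (1.28), Erbin (1.40), a scaffold that binds ErbB2, and Gab2 (1.28), with Pak1 (0.624) and Nck1 (0.781) lower. In microglia 7 of 45 were higher and 3 lower, 22.2% against 28.8%. The higher ones included Gab2 (1274 and 976 CPM, ratio 1.31, interval 1.20 to 1.43), Prkcb (1.31), Adam17 (1.37), a protease that sheds ligands, and Tgfa (1.30), an Egfr ligand. The lower ones were Dlg2 (0.407), Magi2 (0.497) and Gab1 (0.764). Dlg2 and Magi2 are scaffolds known from neurons. The neuron markers summed to 945 aged and 1218 young CPM in microglia, and their part in the Dlg2 and Magi2 ratios was not tested.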

How the data were processed

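The authors deposited unfiltered UMI counts per gene and barcode, per the file headers the output of Cell Ranger 4, for 1 library of each age. The build and annotation, the strand setting and the use of intronic reads were not given in the sources used here. Per the labels' protocols, nuclei were freed of debris and myelin, sorted on DAPI and loaded on a 10x chip. The matrices held 79107368 aged and 87520038 young UMIs.

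Doublets were marked per library with Scrublet. Nuclei of both libraries were clustered with scanpy 1.11.5 (2000 variable genes without the 7 members, 30 components, 15 neighbours, Leiden resolution 1). Clusters were named from fixed marker lists by a score that was set after the clusters were seen, requiring 3 markers detected in 10% of nuclei, so names are rebuilt and mean resemblance. Compared with nuclei of other classes, no named cluster had its own markers outnumbered among its top 10 genes. Most neuron clusters had 0 markers of any class among those genes, so for them this check could not decide the name. Against all other nuclei, the oligodendrocyte cluster led by Enpp6, Anln and Hapln2 had 0 own markers and 1 of another class there. So did the neuron clusters led by Sst, Gbx1 and Sox6 and by Synpo2, Lef1 and Ntng1. The precursor cluster had 3 own markers and 1 of another class, Gpr17 from the list for committed precursors. Neurons were clustered again alone.

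CPM carry exact Poisson, ratios exact conditional binomial and shares Clopper-Pearson 95% intervals. These treat UMIs as independent and cover counting error only, and floors are 3 counts of the class total. Free RNA was the mean of barcodes ranked 20001 to 60000 by UMIs (medians 327 aged and 241 young). Positions came from GENCODE M21 (GRCm38) by Ensembl identifier for 99.8% of features. The ratio code was tested on simulated data. The members, gene lists and rules were chosen with earlier results of these data known. All 7 members were named, as were up to 5 list genes past the fold per class and direction ranked by the interval bound nearest 1, and the 5 most similar genes with r of 0.8 or more, except a few genes that are not reported here. The profiles closest to Erbb4 and Egfr, which fall short of that r, and the contrasts between sub-clusters were picked after their values were seen.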

Additional observations from a re-analysis of the deposited data

Results flagged for a closer look

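Members whose ratio lay above 1 in some classes and below 1 in others, with intervals of counting error that left out 1 on both sides, were Erbb4, Nrg1 and Nrg3. The difference between classes was not tested, since each age has 1 library. Erbb4 was at 1.06 in neurons, 1.14 in oligodendrocyte precursors and 1.11 in astrocytes, and at 0.860 in oligodendrocytes, where both clusters were below 1. The neuron ratios here do not weight sub-clusters alike, and 4 of 6 moved outside their interval when that was done. Nrg1 was at 1.35 in oligodendrocytes and 0.606 in precursors, and Nrg3 at 1.06 in neurons, 1.33 in oligodendrocytes, 1.09 in precursors and 0.462 in microglia. The oligodendrocyte values of both ligands lay near the level of free RNA, the precursor value of Nrg3 was below 1 with doublets kept, and the microglial value of Nrg3 rested in part on 1 young nucleus with 42 UMIs and was 1.07 with doublets kept.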

How the results depend on the processing

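No paired analysis was possible because each age has 1 library. Of 191 recomputed ratios, 169 stayed within the interval of the reported one, 20 moved outside it and 2 reversed. Members past the fold were 2 in neurons, and 0 at 1.5-fold, 1 with the mean of CPM per nucleus and 1 with sub-clusters weighted alike. In oligodendrocytes, from 2, they were 0 at 1.5-fold, 0 after subtraction of empty droplet RNA, where Nrg1 (1.62), Nrg2 (0.745) and Nrg3 (0.747) had fewer than 100 UMIs, and 1 with the mean of CPM per nucleus. In precursors, from 3, they were 1 each at 1.5-fold, with doublets kept, at Leiden resolution 2 and with trimmed-mean factors. In astrocytes, from 0, 1 passed with 20 UMIs as the minimum. In microglia, from 1, 4 passed with 20 UMIs, and 0 with doublets kept or empty droplet RNA subtracted, where no member kept 100 UMIs. A minimum of 20 UMIs lets in sparser genes. The shares of all genes past the fold under these changed settings are not given here, so these counts have no background to be read against. The reversed ratios were Nrg3 in microglia with doublets kept (1.07 against 0.462) and Nrg3 in oligodendrocytes after empty droplet subtraction (0.747 against 1.33). The cause was not tested. With trimmed-mean factors Erbb4 in oligodendrocytes was at 0.799, past the fold, Nrg2 there at 0.791, also past it, and Nrg3 at 1.24, inside it. Weighting the oligodendrocyte clusters alike, added after the data were seen, gave Erbb4 0.827. Nrg3 in precursors was at 0.931 with doublets kept and 0.977 at resolution 2. The leading cell group of each of the 7 members kept its place after empty droplet subtraction, and 20 of 70 shares stayed within their interval without thinning. Depth limits Nrg4, Erbb3, Egfr and Erbb2 most.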
